A study of Mus musculus with 12 samples.

Results

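The effect of phosphatidylserine (PS) was compared between heart and cerebrum of mice that model familial dysautonomia, a hereditary neuropathy of the autonomic and sensory nervous system. For each transcript, the PS effect in a tissue was the mean log2 intensity of the PS arrays minus that of the arrays of mice given the vehicle, medium-chain triglycerides (MCT). The quantity examined was the PS effect in heart minus the PS effect in cerebrum, called the difference below, so that a positive value means a more positive PS effect in heart. Of 35556 transcript clusters in the table, 21218 carried exactly 1 gene symbol (18820 distinct symbols) and were eligible. Of these, 12731 (11215 symbols) had a mean over the 12 arrays of at least 5.23, the 40th percentile, and were tested.

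The arrays form 4 groups of 3, heart PS, heart MCT, cerebrum PS and cerebrum MCT, all of strain C57BL/6J and all labelled with the humanized knock-in genotype FDloxP/+. PS was given by gavage at 200 mg/kg in 100 µl every other day for 3 months, starting at 4 months of age, and the controls received 100 µl of MCT. The label texts conflict on the mice: the series design describes FD mice only, 3 FD and 3 wild-type animals are named in the growth protocol, and the source names give the dose per day in place of per kg. A mouse without the knock-in allele, or an untreated mouse, was not analysed here, so the values compare PS with MCT within 1 labelled genotype. The labels call the arrays biological replicates without naming the mice. With 3 arrays a group, their number limits the precision of every value.

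Phosphatidylserine is a membrane phospholipid that flippases keep on the inner face of the plasma membrane. Scramblases expose it on dying or activated cells, where receptors such as the tyrosine kinase Axl read it through bridging proteins. Heart muscle lives largely on oxidation of fatty acids and cerebrum largely on glucose, and each tissue holds its own mix of cells. In pieces of whole tissue, fewer cells of a type and less RNA per cell cannot be told apart.

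The arrays carried the markers of their labelled tissues. Actc1, the cardiac actin, was 12.65 to 12.80 in heart and 4.75 to 5.37 in cerebrum, and Snap25, a synaptic fusion protein, was 12.30 to 12.44 in cerebrum and 3.97 to 5.08 in heart. Several libraries stood apart in other markers. Xist, the RNA of the inactive X chromosome, was 8.92 to 9.13 in the 3 heart PS arrays, 9.55 and 9.86 in cerebrum PS 1 and 3, and 3.32 to 4.03 in cerebrum PS 2 and all 6 MCT arrays, so in heart sex pattern and treatment cannot be told apart. Heart PS 2 at 9.13 and cerebrum PS 2 at 3.32 were unlike in this marker, and whether they come from different mice or from an exchanged sample cannot be told apart. The median of the 13 tested striatal genes, relative to the cerebrum MCT mean, was −2.55, −2.19 and −0.71 in cerebrum PS 1, 2 and 3. Cerebrum PS 3 also held the pituitary hormone transcript Prl at 10.49, against 3.34 to 5.16 in the other cerebrum arrays. Ttr, made by choroid plexus, was 10.82 and 11.54 in cerebrum MCT 1 and 2 and 4.34 to 6.70 in the rest. The atrial myosin light chain Myl7 was 8.53 in heart MCT 3 and 6.80 in heart PS 3, against 4.16 to 5.08 in the other heart arrays. The atrial markers did not all go the same way. Myl4 (9.62 and 9.18) and Sln (4.80 and 4.63) were also highest in heart MCT 3 and PS 3. Nppa was lowest there, at 10.44 and 10.71, against 11.31 to 12.31 in the other heart arrays.

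Promoters are shown for 4 genes whose PS effect lay mainly in 1 tissue: Ecel1 (lower with PS in cerebrum), Fkbp5 (higher with PS in heart), B3galt2 (lower in heart) and Mrps21 (higher in cerebrum). Each window runs 5′ to 3′ from 250 bases before to 50 bases after the RefSeq start on the gene's own strand (GRCm38.p6). Capitals mark TGTTCT, the core of the glucocorticoid response element, and CACGTG, the E-box of the clock and other factors. Both motifs were searched on both strands, and no position is shared between them.
Ecel1 (chr1:87156307-87156606, minus strand): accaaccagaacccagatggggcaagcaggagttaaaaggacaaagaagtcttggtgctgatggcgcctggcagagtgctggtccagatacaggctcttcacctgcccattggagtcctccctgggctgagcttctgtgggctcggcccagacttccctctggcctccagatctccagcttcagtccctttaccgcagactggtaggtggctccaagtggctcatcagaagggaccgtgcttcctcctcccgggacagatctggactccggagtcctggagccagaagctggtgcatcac
Fkbp5 (chr17:28486100-28486399, minus strand): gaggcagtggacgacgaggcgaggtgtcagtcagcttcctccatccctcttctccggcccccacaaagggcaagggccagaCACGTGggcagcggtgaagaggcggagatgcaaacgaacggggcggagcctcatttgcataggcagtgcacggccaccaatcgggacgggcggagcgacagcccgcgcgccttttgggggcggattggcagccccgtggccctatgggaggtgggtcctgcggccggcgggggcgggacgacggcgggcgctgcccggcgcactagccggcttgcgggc
B3galt2 (chr1:143640447-143640746, plus strand): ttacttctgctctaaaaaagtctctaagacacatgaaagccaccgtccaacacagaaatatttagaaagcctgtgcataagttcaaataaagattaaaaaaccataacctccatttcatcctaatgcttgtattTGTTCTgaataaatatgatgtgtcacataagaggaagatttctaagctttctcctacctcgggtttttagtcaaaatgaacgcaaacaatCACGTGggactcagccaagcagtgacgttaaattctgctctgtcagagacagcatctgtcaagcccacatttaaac
Mrps21 (chr3:95871465-95871764, minus strand): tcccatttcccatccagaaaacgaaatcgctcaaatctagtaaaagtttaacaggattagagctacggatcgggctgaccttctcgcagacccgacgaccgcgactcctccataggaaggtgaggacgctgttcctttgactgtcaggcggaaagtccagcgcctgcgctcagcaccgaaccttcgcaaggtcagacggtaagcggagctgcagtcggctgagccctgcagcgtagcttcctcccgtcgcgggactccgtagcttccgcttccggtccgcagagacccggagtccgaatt
The Fkbp5 window holds 1 CACGTG, and that of B3galt2 holds 1 TGTTCT and 1 CACGTG. The windows also differ in CG dinucleotides, with 6 in Ecel1, 32 in Fkbp5, 5 in B3galt2 and 28 in Mrps21, beside a median of 20 over the windows of tested genes. Among windows of the same length, TGTTCT lay in 12.2% of those of tested genes, in 8.09% for called genes with a positive difference (102 of 128 genes matched) and in 24.5% for called genes with a negative one (41 of 51 matched). For CACGTG the shares were 9.84%, 6.62% and 9.43%, and for TGACGTCA, the cyclic AMP response element, 3.01%, 0.735% and 0.0%. Over all RefSeq windows the shares were 19.0% for TGTTCT, 7.15% for CACGTG and 1.79% for TGACGTCA. These shares are a description, and a match says nothing of binding.

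The PS effect differed between the tissues for 194 transcripts of 179 gene symbols, 1.52% of those tested (limma, adjusted p of 0.05 over all 12731). The difference was positive for 140 transcripts (1.1% of those tested) and negative for 54 (0.424%), and 2448 had an unadjusted p under 0.05. Positive differences were 72.2% of the calls, beside 59.1% of all tested transcripts. After quantile normalization they were 61.6% of the calls and 50.2% of all. After centring each array on its median they were 85.4% of the calls and 64.7% of all. That centring moved the median difference of all tested transcripts from 0.07 to 0.12. Over the called transcripts the size of the difference had a median of 0.98 and ran from 0.57 to 2.62, beside a median standard error of 0.19 over all tested transcripts.

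Opposite signs in the tissues were the largest class of the calls, with 44.8%. At an unadjusted p under 0.05 in the same fit, 87 of the 194 had PS effects of opposite sign in both tissues, which was the case for 1.48% of all tested transcripts. Another 52 (26.8%) passed that p in cerebrum alone and 51 (26.3%) in heart alone, beside 13.1% and 26.3% of all tested transcripts, and 4 passed in both with the same sign, as did 5.02% of all. Over all tested transcripts, 32.8% had such a p in heart and 19.6% in cerebrum, and at an adjusted p of 0.05 the shares were 12.3% and 2.19%. Since the difference selects transcripts with unlike effects, these counts describe the calls and test nothing. For 148 of the 194, the mean was at or above 5.23 in both tissues, whereas 29 reached it in cerebrum alone and 17 in heart alone. In a transcript that lay under that level in one tissue, an effect in that tissue could be understated. Across all tested transcripts, the PS effects of the tissues, which share no arrays, had a Pearson r of 0.32 and a Spearman coefficient of 0.33 and the same sign in 60.6%.

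**Figure D1:**
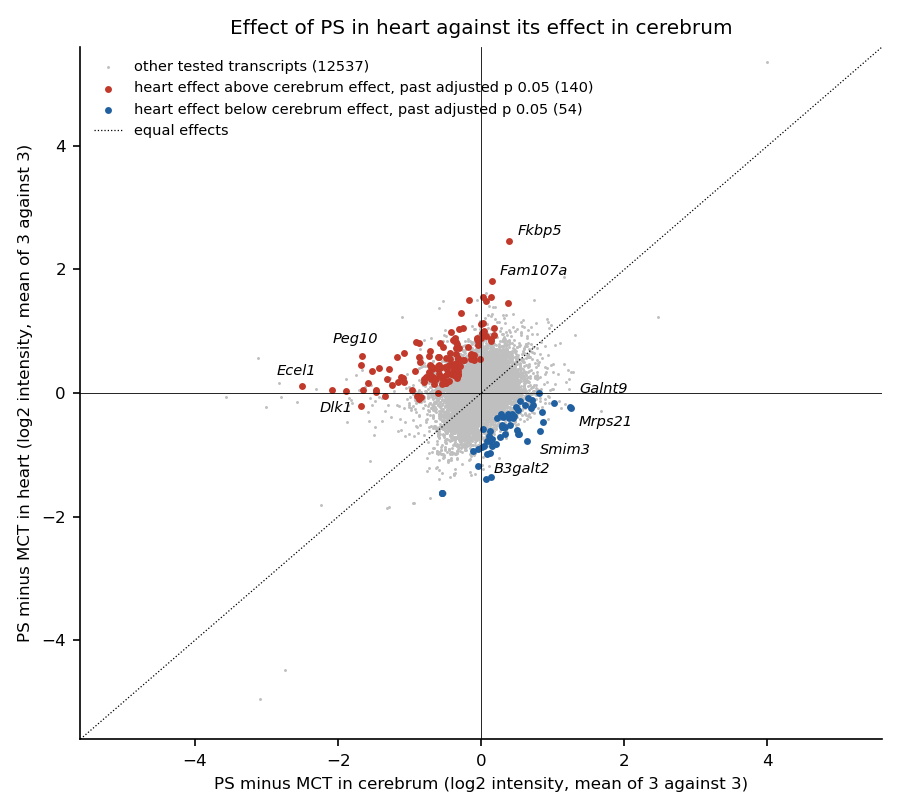
PS minus MCT in cerebrum (x axis) and in heart (y axis), log2 intensity, means of 3 arrays against 3, for 12731 transcripts; the dotted line marks equal effects. The 140 red points lie above the line, most of them left of or above the origin, and the 54 blue points below it, most with a negative effect in heart and a positive one in cerebrum.

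The calls were made from these same PS arrays, so the medians per array below describe the calls and test nothing. Over the 140 transcripts with a positive difference, the median value relative to the MCT mean of the same tissue was 0.39, 0.51 and 0.42 in heart PS 1, 2 and 3. In cerebrum PS 1, 2 and 3 it was −0.48, −0.52 and −0.42. Over the 54 with a negative difference the medians were −0.53, −0.57 and −0.53 in the heart PS arrays, and 0.37, 0.43 and 0.22 in those of cerebrum. The 6 MCT arrays lay between −0.06 and 0.05, which is where their own mean places them. In 107 of the 194 transcripts PS and MCT values did not overlap in either tissue, in 49 they were apart in heart alone and in 38 in cerebrum alone. Over all tested transcripts, values were apart in both tissues in 9.24%, in heart alone in 18.8% and in cerebrum alone in 23.2%, which makes 28.1% for heart and 32.4% for cerebrum in all.

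One set of positive differences came from genes that were lower with PS in cerebrum and near the MCT level in heart. Ecel1, a neuronal metalloprotease of the neprilysin family, was 7.77, 8.31 and 7.76 in cerebrum MCT and 5.30, 5.21 and 5.81 in cerebrum PS. In heart it was 4.66, 4.49 and 4.81 with MCT and 4.74, 4.62 and 4.95 with PS. The cerebrum groups were far apart, whereas the heart groups overlapped at values under the filter level. Its PS effect was −2.51 ± 0.18 (SE) in cerebrum, a 5.68-fold lower intensity, and 0.12 ± 0.18 in heart, and the difference was 2.62 ± 0.26 (limma adjusted p = 0.00304). It was the sole transcript past an adjusted p of 0.01. Ecel1 belongs to the list of cholinergic neuron genes, of which 3 were tested and 7 lay below the filter. All 3 had a negative PS effect in cerebrum with an unadjusted p under 0.05 (median −0.60), beside 19.6% of all tested transcripts with such a p in either direction. How much of this moves with the piece of brain taken was not tested.

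Dlk1, an imprinted gene for a transmembrane protein of the Notch ligand family, was 7.56, 8.0 and 7.43 in cerebrum MCT and 5.49, 5.17 and 6.09 in cerebrum PS. In heart it was 5.33, 5.71 and 5.52 with MCT and 5.56, 5.18 and 5.99 with PS. As for Ecel1, cerebrum PS lay wholly below cerebrum MCT, and the heart groups overlapped. The difference was 2.14 ± 0.35 (SE, limma adjusted p = 0.0173). Unc13c, which primes synaptic vesicles, had 3 called transcripts of 6 tested, and the one with the lowest p had a PS effect of −1.47 in cerebrum and 0.02 in heart. Arhgap6, a GTPase-activating protein, was at −1.58 in cerebrum and 0.16 in heart, and Hap1, which binds huntingtin, at −1.31 and 0.23. For Arhgap6, Hap1 and Unc13c the cerebrum groups did not overlap and the heart groups did. Hap1 was past the threshold in 2 of the 12 fits that each leave out 1 array, without heart MCT 3 and without cerebrum PS 3, with differences from 1.27 to 1.86.

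Rarb, the beta receptor for retinoic acid, is a gene of the striatum. It was 9.06, 9.32 and 9.14 in cerebrum MCT and 6.60, 7.03 and 8.24 in cerebrum PS, and it lay between 8.53 and 8.97 in all 6 heart arrays. The value of cerebrum PS 3 was nearest to the controls, as for the striatal list as a whole. Its difference of 1.92 ± 0.43 (SE) passed narrowly (limma adjusted p = 0.0494) and was lost in 10 of the 12 fits that each leave out 1 array (adjusted p from 0.0839 without heart PS 3 to 0.124 without cerebrum MCT 2), with values from 1.57 to 1.99. Prkch, a protein kinase C, Strip2, of phosphatase complexes, and Rasgrp2, an activator of Rap, also had a cerebrum PS 3 value closer to MCT than those of PS 1 and 2, at 6.37 against 5.27 and 5.22 for Prkch, 8.23 against 7.19 and 6.84 for Strip2, and 7.30 against 6.45 and 6.38 for Rasgrp2. The part of the striatal genes' level in these results was not tested.

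A second set of positive differences came from genes that were higher with PS in heart and had smaller mean PS effects in cerebrum. Fkbp5, the cochaperone of steroid receptors that glucocorticoids induce, was 5.80, 5.73 and 5.91 in heart MCT and 7.96, 8.59 and 8.28 in heart PS. In cerebrum it was 6.55, 6.83 and 6.71 with MCT and 7.38, 6.37 and 7.51 with PS. The heart groups were apart by over 2 log2 units, and in cerebrum PS 1 and PS 3 lay above every MCT array while PS 2 lay below them. Cerebrum PS 2 was also the PS array with Xist at 3.32, and the part of the sex pattern was not tested. The PS effect was 2.46 ± 0.25 (SE) in heart, a 5.51-fold higher intensity, and 0.39 ± 0.25 in cerebrum, and the difference was 2.07 ± 0.35 (limma adjusted p = 0.0191). The call was lost without cerebrum MCT 1 (2.15, adjusted p = 0.0576) and without cerebrum MCT 2 (2.01, adjusted p = 0.0632). Without cerebrum PS 2 it was kept, at 1.715, the lowest difference of the 12 fits that each leave out 1 array.

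Fam107a, an actin-binding protein known to respond to stress and glucocorticoids, was 6.76, 7.02 and 7.56 in heart MCT and 8.76, 9.05 and 8.98 in heart PS. Its cerebrum values were 10.31, 10.41 and 10.25 with MCT and 10.38, 10.38 and 10.65 with PS. The heart groups were apart and the cerebrum groups overlapped, with a difference of 1.67 ± 0.24 (SE, limma adjusted p = 0.0125). The matrix proteoglycan Spock2 was at 1.56 in heart and 0.02 in cerebrum, the adhesion molecule Ncam1 at 1.50 and −0.17, and Rasgef1b, an exchange factor of the Ras family, at 1.30 and −0.28. For Spock2, Ncam1 and Rasgef1b the heart groups did not overlap and the cerebrum groups did. Fgfr3, a fibroblast growth factor receptor that astrocytes carry in brain, was at 0.98 in heart and 0.01 in cerebrum, and Glul, the glutamine synthetase, at 0.55 and −0.02 for its called transcript. Notch3, the Notch receptor of vascular smooth muscle, was at 1.01 and 0.04.

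The third set had PS effects on both sides of 0. Nt5e, the cell-surface nucleotidase that makes adenosine, was 7.14, 7.27 and 7.12 in heart MCT and 7.74, 7.98 and 7.74 in heart PS. In cerebrum it was 6.23, 6.32 and 6.04 with MCT and 4.63, 5.28 and 5.43 with PS. PS arrays were above every control in heart and below every control in cerebrum, and the difference was 1.73 ± 0.25 (SE, limma adjusted p = 0.0125). Peg10, an imprinted gene derived from a retrotransposon, was 5.24, 4.88 and 5.39 in heart MCT and 5.84, 6.12 and 5.37 in heart PS. Its cerebrum values were 9.24, 9.65 and 9.23 with MCT and 7.45, 8.10 and 7.57 with PS. The heart values overlapped by 1 array, the cerebrum values did not, and the difference was 2.27 ± 0.31 (SE, limma adjusted p = 0.0125). Vat1, a vesicle membrane protein, was at 0.83 in heart and −0.92 in cerebrum, and Gpc3, a heparan sulfate proteoglycan, at 0.82 and −0.87.

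Nexn, the actin-binding nexilin of the sarcomere's Z-disc, was 9.79, 9.89 and 10.16 in heart MCT and 10.36, 10.42 and 10.44 in heart PS. In cerebrum it was 5.59, 5.90 and 5.29 with MCT and 3.69, 3.60 and 4.46 with PS. Neither tissue had an overlap, and the cerebrum values with PS lay below the filter level of 5.23. Doc2b, a calcium sensor of vesicle release, was at 0.59 in heart and −1.18 in cerebrum, with all heart values but that of PS 2 under the filter level. Doc2b was past the threshold in 2 of the 12 fits that each leave out 1 array, without heart MCT 3 and without cerebrum PS 3, with differences from 1.46 to 2.185. Mamdc2, a matrix proteoglycan, had values of 5.24, 5.33 and 5.26 in heart MCT and 6.02, 6.11 and 6.16 in heart PS, against 5.19, 5.43 and 5.31 in cerebrum MCT and 5.14, 4.84 and 4.89 in cerebrum PS. Its replicates were tight and did not overlap in either tissue, and the difference was 1.17 ± 0.15 (SE, limma adjusted p = 0.0116). The Mamdc2 values of cerebrum PS lay below the filter level, and those of heart MCT and cerebrum MCT were close to it.

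Smaller differences of opposite sign were found for Pnp, Vrk1, Mtmr10 and Hspd1. Pnp, the purine nucleoside phosphorylase, had a PS effect of 0.58 in heart and −0.61 in cerebrum, and Vrk1, a nuclear kinase, of 0.45 and −0.59. Mtmr10, of the myotubularin family, was at 0.41 and −0.57. Hspd1, the mitochondrial chaperonin, had both of its transcripts called, the one with the lower p at 0.39 in heart and −0.61 in cerebrum. In all 4 genes PS and MCT values did not overlap in either tissue, and the limma adjusted p was 0.0138 for Vrk1 and at most 0.019 for the others.

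**Figure D2:**
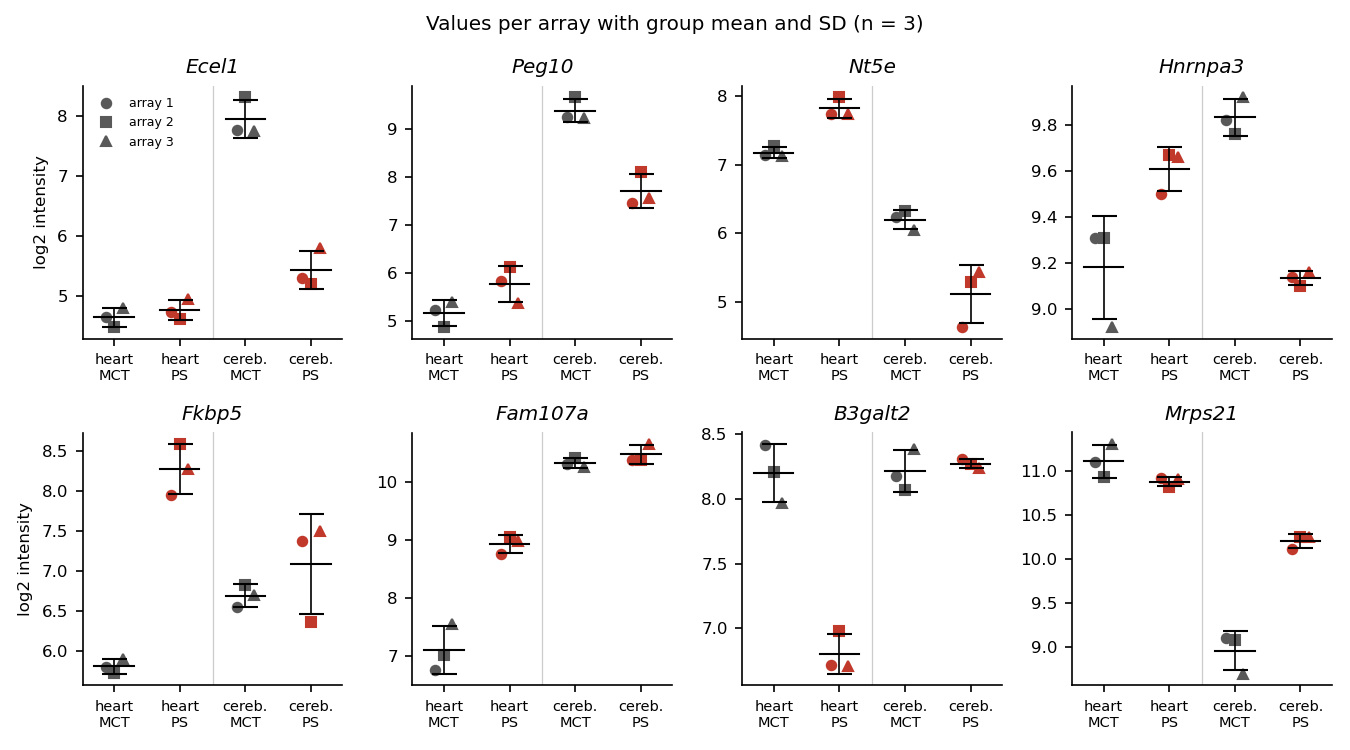
log2 intensity of 8 genes in each of the 12 arrays, grey for MCT and red for PS, with the group mean and SD (n = 3); the y axes differ. Ecel1 and Peg10 are lower with PS in cerebrum, Nt5e and Hnrnpa3 move in opposite directions, Fkbp5 and Fam107a are higher in heart PS, B3galt2 is lower in heart PS, and Mrps21 is higher in cerebrum PS.

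Negative differences were fewer, and the largest in size was −1.50. Galnt9, a brain enzyme that starts O-linked glycosylation, led them with a PS effect of −0.24 in heart and 1.25 in cerebrum. It was 7.49, 7.38 and 8.17 in cerebrum MCT and 9.02, 9.19 and 8.59 in cerebrum PS, and its heart values lay under the filter level. The cerebrum groups did not overlap. The difference of −1.50 ± 0.27 (SE, limma adjusted p = 0.0254) was past the threshold in 4 of the 12 fits that each leave out 1 array, and its largest adjusted p there was 0.0773, without cerebrum MCT 1 (−1.40).

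Mrps21, of the small subunit of the mitochondrial ribosome, was 9.10, 9.08 and 8.70 in cerebrum MCT and 10.12, 10.25 and 10.25 in cerebrum PS. In heart it was 11.10, 10.93 and 11.31 with MCT and 10.92, 10.82 and 10.91 with PS. The cerebrum groups were apart and the heart groups lay close together without overlap. The difference was −1.48 ± 0.18 (SE, limma adjusted p = 0.0116). Npy, the neuropeptide of cortical interneurons, was 9.92, 9.86 and 9.89 in cerebrum MCT and 10.78, 11.20 and 10.76 in cerebrum PS, while all 6 heart arrays lay between 5.44 and 5.78. The cerebrum groups were apart and the heart groups overlapped, with a difference of −1.18 ± 0.18 (SE, limma adjusted p = 0.0125). Interneuron markers did not move together. Of 13 tested, 6 had a positive and 7 a negative difference (median −0.16), beside 60.7% positive over all genes tested. Npy was the one call of that list, beside 1.52% of all tested transcripts. In cerebrum 4 of the 13 were higher and 3 lower with PS at an unadjusted p under 0.05 (limma). The metabotropic glutamate receptor gene Grm2 was at −0.31 in heart and 0.84 in cerebrum, Sidt1, a membrane protein of the SID family, at −0.48 and 0.86, and Car7, a carbonic anhydrase, at −0.25 and 0.69. Rspo3, a Wnt agonist, was at −0.19 and 0.73. Of these, Npy and Car7 were at or above the filter level in both tissues, and Galnt9, Grm2, Sidt1 and Rspo3 in cerebrum alone.

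B3galt2, a galactosyltransferase of glycoproteins and glycolipids, was 8.42, 8.21 and 7.97 in heart MCT and 6.72, 6.98 and 6.71 in heart PS. Its cerebrum values were 8.18, 8.07 and 8.39 with MCT and 8.31, 8.27 and 8.24 with PS. Heart PS was below every control, and the cerebrum groups overlapped. The PS effect was −1.40 ± 0.13 (SE) in heart, a 2.63-fold lower intensity, and 0.06 ± 0.13 in cerebrum, with a difference of −1.46 ± 0.18 (limma adjusted p = 0.0116). Other genes lower with PS in heart and near 0 in cerebrum were Tmem256, a small membrane protein (−1.18 and −0.05), Mtln, a mitochondrial micropeptide (−0.99 and 0.08), the growth arrest gene Gadd45a (−0.96 and 0.13) and the integrin subunit Itgb6 (−0.86 and 0.15). In heart MCT 3 the values of Mtln and Gadd45a (7.07 and 6.46) were the lowest of the controls, though above all 3 PS arrays (at most 6.57 and 5.99). Arhgap32, a GTPase-activating protein, was at −0.72 and 0.26, and Cst6, a cystatin, at −0.75 and 0.16.

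Among negative differences of opposite sign, the lowest p was that of Pcsk1n, the precursor of a prohormone convertase inhibitor. It was 6.42, 6.19 and 6.01 in heart MCT and 5.57, 5.67 and 5.58 in heart PS, and 11.23, 11.37 and 11.07 in cerebrum MCT and 11.66, 11.77 and 11.73 in cerebrum PS. Neither tissue had an overlap, and the difference was −1.10 ± 0.17 (SE, limma adjusted p = 0.0125). Smim3, a small membrane protein, was at −0.78 in heart and 0.64 in cerebrum, Cenpa, the centromeric histone, at −0.67 and 0.53, and Zdhhc22, a palmitoyltransferase, at −0.66 and 0.51 for its called transcript. Sowahb, an ankyrin repeat protein, was at −0.61 and 0.82, Kcnk1, a potassium leak channel, at −0.52 and 0.29, and Rbfox3, the splicing regulator that marks neurons, at −0.52 and 0.40. Polr2e, a subunit of the RNA polymerases, was at −0.38 and 0.46, the membrane protein gene Smagp at −0.35 and 0.42, and Ankle2, of the nuclear envelope, at −0.41 and 0.22 for its called transcript. Of these, Pcsk1n, Smim3, Kcnk1 and Polr2e were at or above 5.23 in both tissues, as was the called transcript of Ankle2.

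Splicing factor proteins were the list with the most calls, and also among the lists with the most genes tested. Of 26 tested genes of SR, hnRNP and snRNP proteins, 23 had a positive difference and 3 a negative one, with a median of 0.36, beside a median of 0.08 and 60.7% positive over all 11215 genes tested. The list's median PS effect was 0.27 in heart and −0.15 in cerebrum, and 16 of the 26 had opposite signs. Calls were made for 3, all positive, and 11 had an unadjusted p under 0.05. Over all tested transcripts 1.52% were called and 2448 of 12731 had such a p, which is the background for the counts of every list below. Leaving out heart MCT 3 raised the list's calls to 10 positive and 1 negative, in a fit that called 12.8% of all tested transcripts. Leaving out cerebrum MCT 1 left 0, in a fit that called 0.0236% of all. The median kept its sign in every alternative run, from 0.25 without cerebrum PS 1 and PS 2 to 0.47 with array weights.

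Hnrnpa3, an hnRNP that binds pre-mRNA, was 9.31, 9.31 and 8.92 in heart MCT and 9.50, 9.67 and 9.66 in heart PS for its transcript with the lowest p. In cerebrum it was 9.82, 9.76 and 9.92 with MCT and 9.14, 9.10 and 9.16 with PS. PS lay above every control in heart and below every control in cerebrum, and the difference was 1.13 ± 0.16 (SE, limma adjusted p = 0.0125). All 9 transcript clusters annotated to this symbol were called, and near-identical copies may share probes, so they are not 9 independent results. Hnrnpd, an hnRNP that binds AU-rich RNA, was 8.35, 8.35 and 8.49 in heart MCT, 8.74, 8.62 and 8.72 in heart PS, 9.14, 9.19 and 9.32 in cerebrum MCT and 8.83, 8.78 and 8.88 in cerebrum PS. Neither tissue overlapped, and the difference was 0.68 ± 0.13 (SE, limma adjusted p = 0.0277).

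Sf3b1, a core spliceosome protein, was at 0.55 in heart and −0.14 in cerebrum (difference 0.69, limma adjusted p = 0.0429), with overlap in cerebrum alone. Hnrnpa2b1, an hnRNP, was at 0.40 and −0.24 and did not pass (difference 0.64, limma adjusted p = 0.0594). The 3 genes with a negative difference, named after their values were seen, were all snRNP proteins: Snrpg (−0.79 in heart and −0.29 in cerebrum), Snrpd1 (−0.53 and −0.16) and Snrpa (0.13 and 0.25).

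**Figure D3:**
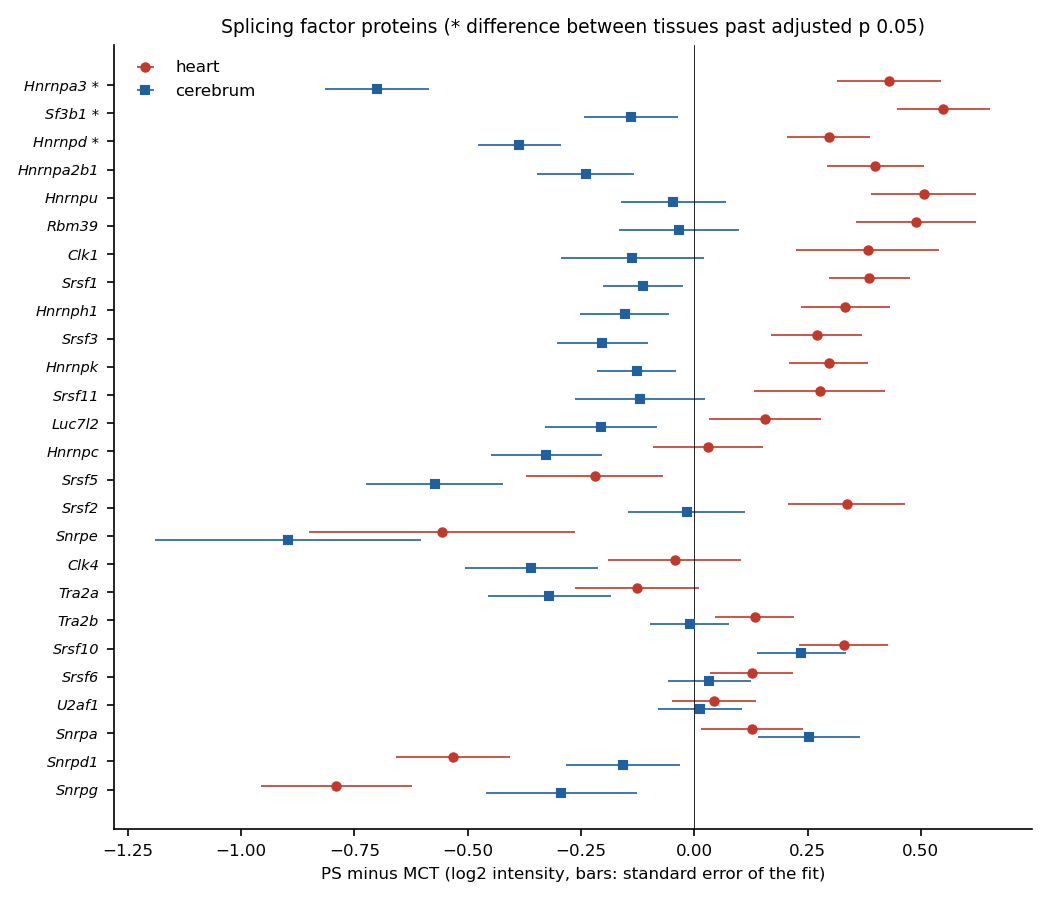
PS minus MCT (log2 intensity) of the 26 tested splicing factor genes in heart (red circles) and cerebrum (blue squares), bars giving the standard error of the limma fit and asterisks the 3 called genes. The heart point lies to the right of the cerebrum point in 23 of the 26 genes.

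Genes that glucocorticoids induce had positive PS effects in both tissues, with a larger median in heart. Of 18 tested, 18 were above 0 in heart (median 0.76) and 17 in cerebrum (median 0.43). The difference had a median of 0.27, with 13 positive and 5 negative (60.7% positive over all genes tested), and only Fkbp5 of the 18 was called. Without heart MCT 1 the median of the difference was 0.11. Ddit4, which restrains mTOR signalling, was at 1.27 in heart and 0.10 in cerebrum (difference 1.17, limma adjusted p = 0.0841). The metallothionein Mt2 was at 1.29 and 0.45 and Tsc22d3, the glucocorticoid-induced leucine zipper, at 0.84 and 0.37. Neither Mt2 (limma adjusted p = 0.179) nor Tsc22d3 (0.151) passed. Hsd11b1, the enzyme that regenerates active corticosteroid, was 7.58, 7.51 and 7.31 in heart MCT and 6.48, 6.50 and 6.49 in heart PS, and 5.76, 6.93 and 4.94 in cerebrum PS against 5.48 to 6.03 in cerebrum MCT. The heart groups were apart, the cerebrum PS arrays spread to both sides of their controls, and the difference of −1.13 did not pass (limma adjusted p = 0.242). The sex pattern named above moved with treatment in heart and, except in cerebrum PS 2, in cerebrum, and its part was not tested.

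Immediate early genes, which neuronal activity and growth signals induce, had mostly positive PS effects in cerebrum and a median near 0 in heart. Of 19 tested, 16 had a negative difference, with a median of −0.57, and the list's median effect was −0.02 in heart and 0.63 in cerebrum. None was called by limma at the adjusted threshold, and 4 had an unadjusted p under 0.05, as did 2448 of the 12731 transcripts. The median was −0.37 without heart MCT 2. Arc, a synaptic plasticity gene, was 8.42, 8.79 and 8.63 in cerebrum MCT and 9.70, 10.44 and 9.23 in cerebrum PS, and 6.20 to 6.90 in all heart arrays. Its cerebrum groups did not overlap, and the difference of −1.36 ± 0.36 (SE) missed the threshold (limma adjusted p = 0.0763). The transcription factor Egr3 was at 0.07 in heart and 1.22 in cerebrum (limma adjusted p = 0.0565), and Egr4 at −0.23 and 0.70. Nptx2, a synaptic pentraxin, was at −0.15 and 0.89, with cerebrum PS 2 at 9.29 and the other PS arrays at 8.22 and 8.12. Genes that feed back on ERK signalling had 11 of 13 differences below 0 (median −0.21), which was −0.03 without heart PS 1 and turned to 0.03 without cerebrum PS 1 and PS 2. Dusp5, a phosphatase of ERK, was at 0.15 in heart and 0.88 in cerebrum (limma adjusted p = 0.118).

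The median difference was largest for the Striatum list, followed by Thalamus (0.69), the sex-linked genes (0.62) and Cerebral cortex (−0.62). Of 13 striatal genes, 12 had a positive difference, with a median of 1.67, a median PS effect of −0.09 in heart and one of −1.87 in cerebrum. Only Rarb was called, and 12 had an unadjusted p under 0.05, beside 1.52% called and 2448 of 12731 under that p over all transcripts. Without cerebrum PS 3 the list's calls were 11, in a fit that called 2.86% of all tested transcripts. The dopamine receptor Drd2 was 9.49, 9.69 and 9.53 in cerebrum MCT and 5.55, 4.97 and 8.82 in cerebrum PS. That spread between PS arrays gave a difference of 3.69 with a standard error of 1.00 (limma adjusted p = 0.0837). Syndig1l was at −0.19 in heart and −1.53 in cerebrum, and Adcy5, the adenylate cyclase of striatum and heart, at 0.20 and −1.30.

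Cerebral cortex genes went the other way, with 11 of 13 differences below 0 and a median of −0.62. They had 0 calls by limma, though 7 had an unadjusted p under 0.05, beside 2448 of the 12731 transcripts. The vesicular glutamate transporter Slc17a7 was at −0.51 in heart and 0.49 in cerebrum (limma adjusted p = 0.0554), the layer gene Fezf2 at −0.32 and 0.74, and Lamp5 at −0.43 and 0.93. The 11 thalamic genes had a median difference of 0.69, which was 0.44 without cerebrum MCT 2. That array lay at 0.54 for the list, against −0.18 and −0.24 in cerebrum MCT 1 and 3. Of 16 myelin genes, 14 had a positive difference (median 0.38), and Cnp, the cyclic nucleotide phosphodiesterase of oligodendrocytes, was called, at 0.42 in heart and −0.51 in cerebrum (limma adjusted p = 0.0465). Opalin, at −0.29 and −1.35, and Aspa, which breaks down N-acetylaspartate, at −0.19 and −1.18, were not. The striatal level differed between the cerebrum PS arrays as given above, and how much of any cerebrum effect moves with the piece of brain taken was not tested.

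**Figure D4:**
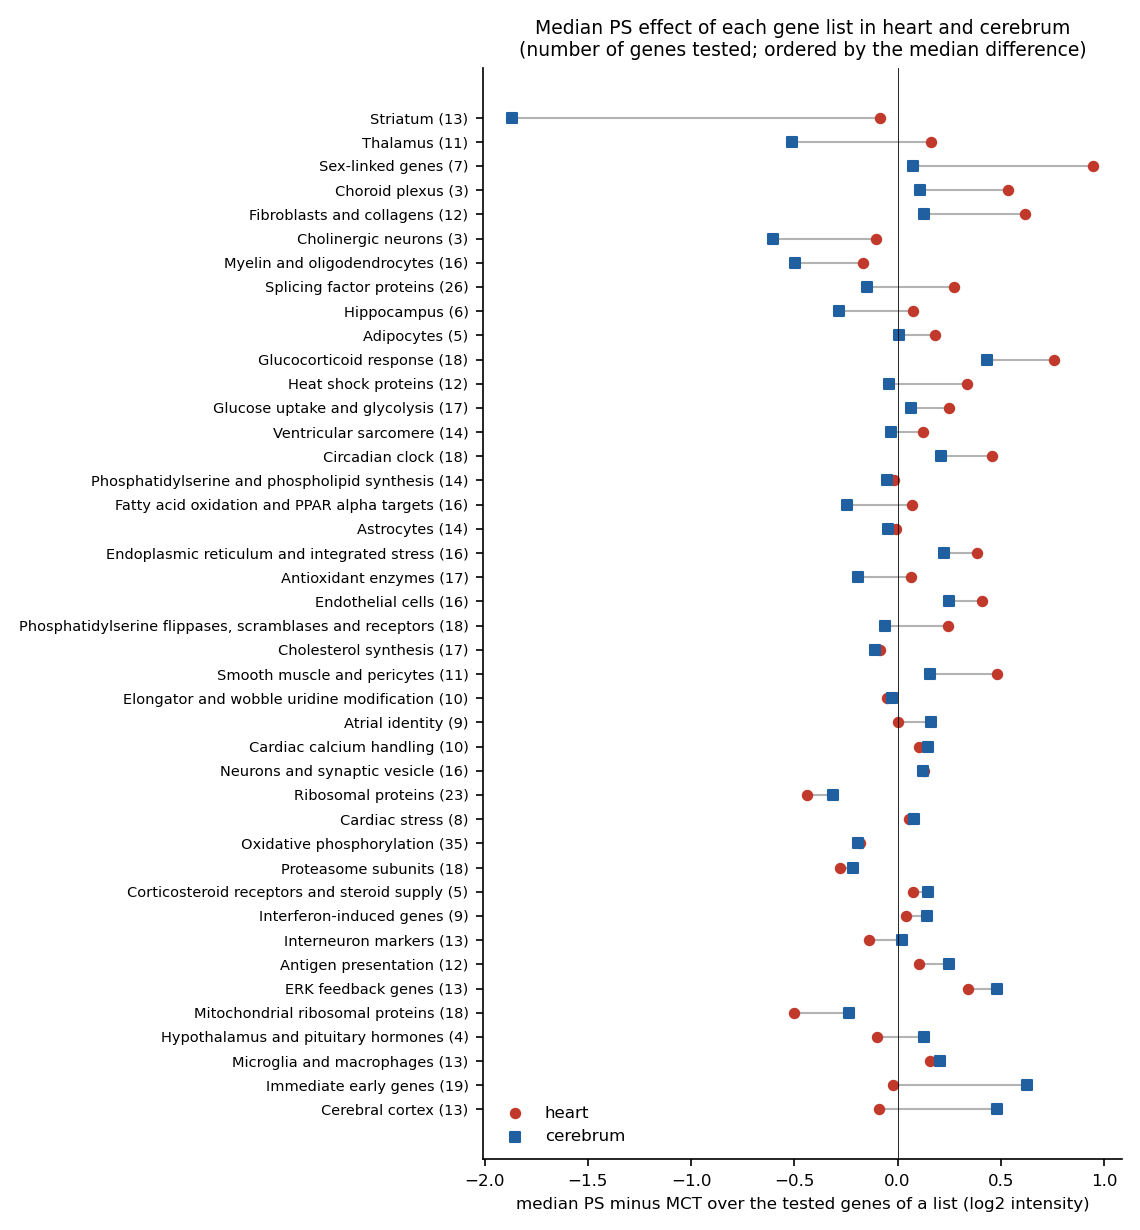
Median PS minus MCT (log2 intensity) over the tested genes of each list in heart (red circles) and cerebrum (blue squares), with the number of genes tested, ordered by the median of the difference. The Striatum list has the widest gap, with −0.09 in heart and −1.87 in cerebrum, and the Cerebral cortex and Immediate early lists lie at the other end.

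Lists of energy metabolism had smaller medians of the difference. Of 16 genes of fatty acid oxidation and PPAR alpha targets, 14 had a positive difference, with a median of 0.20 (0.32 without cerebrum PS 2 and 0.31 without cerebrum MCT 3) and median PS effects of 0.07 in heart and −0.24 in cerebrum. Acaa2, the thiolase that ends a round of mitochondrial beta-oxidation, was the one call, at 11.58, 11.63 and 11.82 in heart MCT, 11.85, 11.80 and 12.03 in heart PS, 8.17, 8.25 and 7.97 in cerebrum MCT and 7.52, 7.57 and 7.71 in cerebrum PS. Cerebrum PS lay below every control, the heart groups overlapped, and the difference was 0.75 ± 0.16 (SE, limma adjusted p = 0.0434). Hadha and Hadhb, the subunits of the trifunctional protein, and Acadm, an acyl-CoA dehydrogenase, had differences of 0.48 or 0.49 for the transcript of lowest p and did not pass (limma adjusted p = 0.114 to 0.134). Glucose uptake and glycolysis had 15 of 17 differences above 0 (median 0.25) and no call by limma, with 2 at an unadjusted p under 0.05.

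Genes of translation and respiration had negative medians in both tissues. Ribosomal protein genes had medians of −0.44 in heart and −0.31 in cerebrum and a median difference of −0.04 over 23 genes, and oxidative phosphorylation had −0.18 and −0.19 and a median difference of −0.06 over 35. Heart MCT 3 lay at −0.35 for the ribosomal list, near the heart PS arrays (−0.44 to −0.42) and below heart MCT 1 and 2 (0.25 and 0.10). Both lists had 0 calls by limma, with 3 genes each at an unadjusted p under 0.05. Ndufb3, a complex I subunit, came closest, at −0.67 in heart and 0.14 in cerebrum (limma adjusted p = 0.0554). Mitochondrial ribosomal proteins were at −0.50 in heart and −0.24 in cerebrum, with 16 of 18 differences below 0 (median −0.23). Mrps21, their one call, was unlike the list, as it alone of the 18 had a positive PS effect in cerebrum. Without heart MCT 1 that median was −0.08, and the list's level, relative to the MCT mean, was 0.28, 0.16 and −0.47 in heart MCT 1, 2 and 3. Of 12 heat shock genes 10 had a positive difference (median 0.25, and 0.16 without heart PS 2), Hspd1 was called, and the chaperone Hspb1, at 0.34 in heart and 1.28 in cerebrum for the transcript of lowest p, did not pass (limma adjusted p = 0.116).

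Genes that handle phosphatidylserine had 1 call. Of 18 flippases, scramblases, receptors and bridging proteins, 12 had a positive difference (median 0.09, and 0.02 without cerebrum MCT 3), beside 60.7% and a median of 0.08 over all genes tested and a call share of 1.52%. Axl, a receptor kinase for exposed PS, was 8.13, 8.28 and 7.97 in heart MCT and 8.66, 9.44 and 8.96 in heart PS. Its cerebrum values were 7.97, 7.96 and 7.80 with MCT and 7.59, 7.51 and 7.52 with PS. PS arrays lay above all controls in heart and below all controls in cerebrum, and the difference was 1.26 ± 0.23 (SE, limma adjusted p = 0.0252). The scramblase Ano6 was at 0.69 in heart and −0.15 in cerebrum (limma adjusted p = 0.0602). Pros1, a bridging protein that links exposed PS to Axl and its relatives, was at 0.45 and −0.18 (limma adjusted p = 0.187).

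Of 14 genes of PS and phospholipid synthesis, none was called by limma, beside 1.52% of all tested transcripts. An unadjusted p under 0.05 was found for 6, beside 2448 of the 12731 transcripts. Chka, the choline kinase, was at 0.86 in heart and 0.06 in cerebrum (limma adjusted p = 0.0565). The CDP-diacylglycerol synthases went in different directions, with Cds1 at −0.38 in heart and 0.69 in cerebrum and Cds2 at 0.58 and −0.07. The lipin phosphatase Lpin2 was at 0.67 and 0.21. Of 10 Elongator and wobble uridine genes, the pathway of the disease, none was called by limma and 1 had an unadjusted p under 0.05, with a median difference of −0.01 that changed sign in 10 of the alternatives. The knocked-in gene itself was not analysed here. Elp2 was at 0.39 in heart and 0.00 in cerebrum and Elp4 at −0.08 and −0.45.

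Cell type lists held few calls. Fibroblast and collagen genes had 11 of 12 differences above 0 with a median of 0.50, which was 0.17 without heart PS 2, and 0 calls by limma (2 at an unadjusted p under 0.05). Postn, a matrix protein of activated fibroblasts, was 7.02, 10.41 and 7.18 in heart PS and 6.68, 7.18 and 6.62 in heart MCT, and Col6a1 was 6.75, 8.50 and 7.14 and 6.46, 6.83 and 6.57. Heart PS 2 stood above all other heart arrays for both. Neuronal genes gave Eno2, the neuronal enolase, with a positive difference (0.64) and Rbfox3 with a negative one (−0.92), both under the filter level in heart. Of the sex-linked genes, Ddx3x, an X-linked RNA helicase known to escape inactivation, was called with 2 of its 3 transcripts, the one of lowest p at 0.84 in heart and 0.14 in cerebrum, and Kdm6a, another such gene, was at 0.98 and 0.07 (limma adjusted p = 0.0763). In cerebrum the Ddx3x groups overlapped. Without cerebrum PS 2, the PS array of male pattern, the Ddx3x difference was 0.66 (limma adjusted p = 0.109), against 0.70 with all arrays. The part of the sex pattern was not tested.

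The number of calls depended on single arrays. Leaving out each array in turn gave 76, 89 and 1629 calls without heart MCT 1, 2 and 3, and 145, 58 and 68 without heart PS 1, 2 and 3. It gave 3, 39 and 118 calls without cerebrum MCT 1, 2 and 3, and 38, 54 and 364 without cerebrum PS 1, 2 and 3. Without heart MCT 3, the array with the highest Myl7, all 194 transcripts were still called, and 59.7% of the 1629 were positive. Without cerebrum MCT 1, only Ecel1 (2.71), Mamdc2 (1.23) and Mrps21 (−1.55) passed. Without cerebrum PS 3, the array with pituitary transcripts, 171 of the 194 remained. Without cerebrum PS 2, the PS array of male pattern, 52 remained, and without both cerebrum PS 1 and 2 the calls were 4, of which 1 was among the 194.

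Of 62 called genes followed by name, Ecel1, Mamdc2 and Mrps21 were past the threshold in all 12 of these fits. A further 13 were past in 11 of the 12 and lost without cerebrum MCT 1, where their limma adjusted p ran from 0.0557 to 0.0567. These were B3galt2, Fam107a, Fgfr3, Hnrnpa3, Itgb6, Mtmr10, Nexn, Npy, Nt5e, Pcsk1n, Peg10, Spock2 and Vrk1. Another 30 of the 62 were past in 5 or fewer. No called gene among the 62 changed the sign of its difference when an array was left out.

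**Figure D5:**
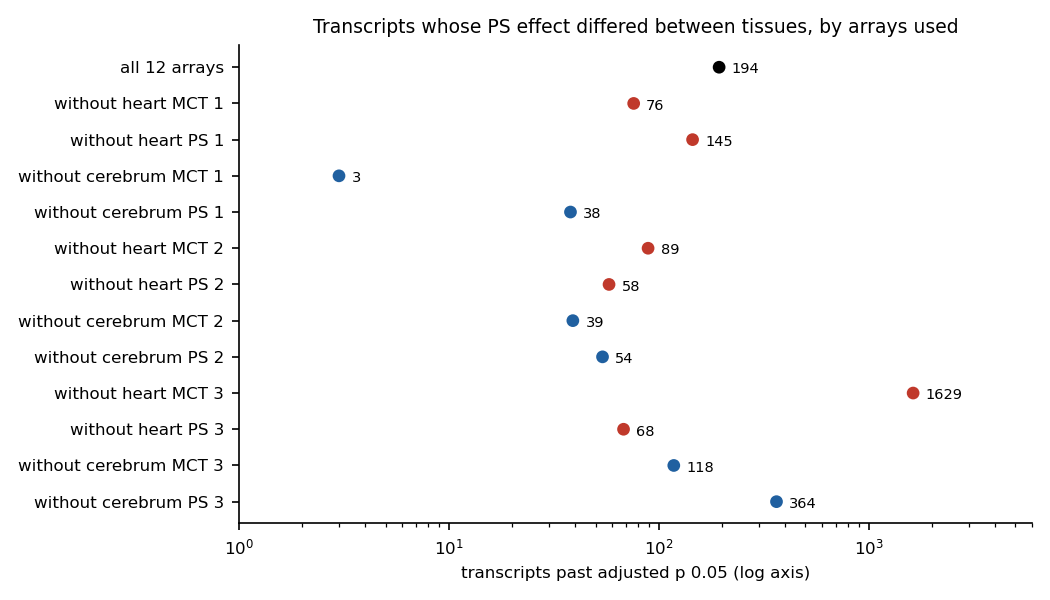
Number of transcripts past an adjusted p of 0.05 for the difference (log axis), with all 12 arrays and with each array left out in turn; red points leave out a heart array and blue points a cerebrum array. The count is 194 with all arrays, 3 without cerebrum MCT 1 and 1629 without heart MCT 3.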

How the data were processed

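RNA of heart and cerebrum was hybridised to 12 Affymetrix whole-transcript arrays. The authors deposited 1 log2 intensity per transcript cluster and array, made in Affymetrix Expression Console (source: the submitters' processing notes). For background correction, summary method and build, the choice is not given in the sources used here. From the range of the values, 1.9 to 13.11, the log2 scale was inferred. Array medians were 4.89 to 5.00, no arrays were duplicates, and no further normalization was applied. A shift common to all transcripts would not show in values with equal medians.

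Symbols came from the supplied platform annotation: 1881 clusters with several symbols and 12457 with none were left out and tested apart. limma 3.58.1 in R 4.3.3 (lmFit, eBayes) fitted 1 mean per group over all 12 arrays, with Benjamini-Hochberg adjustment over all 12731 tested transcripts and a threshold of 0.05. Effects within each tissue come from the same fit and are descriptive. The script was tested on simulated data.

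Named genes were, in each direction, the 20 called symbols of largest difference, those of largest difference above the filter in both tissues, those of lowest p with opposite signs, and up to 4 per list by p; gene models and small RNAs were counted only. Lists hold 1 transcript per gene, the one of highest mean. Members and lists were chosen with earlier results of these data known. Sgce, Grb10, Snrpg, Snrpd1 and Snrpa were named after their values were seen. One gene that this rule names is left unreported. p-values measure the spread between these arrays. Whether equal numbers in heart and cerebrum mark 1 mouse is not stated in the labels, and heart PS 2 and cerebrum PS 2 differ in Xist, so no pairing was assumed. Alternatives covered scaling, filters, weights, thresholds, blocks and left-out arrays.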

Additional observations from a re-analysis of the deposited data

Results flagged for a closer look

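The test of the difference between tissues itself marked 194 transcripts, and the called genes named in this account are given here with their difference in log2 units. Where PS had a more positive effect in heart, the differences above 1.8 were those of Ecel1 (2.62), Peg10 (2.27), Dlk1 (2.14), Nexn (2.14), Fkbp5 (2.07), Rarb (1.92), Prkch (1.88) and Strip2 (1.84). Between 1.4 and 1.8 lay Doc2b (1.77), Vat1 (1.74), Arhgap6 (1.74), Nt5e (1.73), Gpc3 (1.69), Rasgrp2 (1.68), Fam107a (1.67), Ncam1 (1.67), Rasgef1b (1.58), Hap1 (1.54), Spock2 (1.53) and Unc13c (1.50). Between 0.95 and 1.4 were Grb10 (1.37), Axl (1.26), Pnp (1.18), Mamdc2 (1.17), Hnrnpa3 (1.13), Vrk1 (1.04), Hspd1 (1.00), Mtmr10 (0.98), Fgfr3 (0.97) and Notch3 (0.97). Below that were Cnp (0.93), Sgce (0.76), Acaa2 (0.75), Ddx3x (0.70), Sf3b1 (0.69), Hnrnpd (0.68), Eno2 (0.64) and Glul (0.57). Where PS had a more negative effect in heart, the smaller differences were those of Ankle2 (−0.63), Smagp (−0.77), Kcnk1 (−0.81), Polr2e (−0.83), Cst6 (−0.91), Rspo3 (−0.91), Rbfox3 (−0.92), Car7 (−0.94) and Arhgap32 (−0.98). The larger ones were those of Itgb6 (−1.02), Mtln (−1.07), Gadd45a (−1.09), Pcsk1n (−1.10), Tmem256 (−1.14), Grm2 (−1.16), Zdhhc22 (−1.17), Npy (−1.18), Cenpa (−1.20), Sidt1 (−1.34), Smim3 (−1.42), Sowahb (−1.42), B3galt2 (−1.46), Mrps21 (−1.48) and Galnt9 (−1.50). Most of these calls depend on single arrays, as the counts for left-out arrays in the report give. Groups of 3 arrays are too small for a test of single outlying arrays.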

How the results depend on the processing

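The 194 calls for the difference between heart and cerebrum became 294 with arrays centred on their medians (251 positive), 96 with a plain t statistic, 119 with weights by group, 1 at an adjusted p of 0.01 and 633 at 0.10. They ranged from 3 to 1629 when each array was left out in turn, and were 1093 without heart MCT 3 and heart PS 3, 4 without cerebrum PS 1 and PS 2, and 1606 without cerebrum PS 3 and heart MCT 3, an alternative chosen after seeing the data. Quantile normalization (177), the other filters and annotation choices (141 to 184), limma's trend (230) and array weights (258) stayed within 1.5 times. A block by replicate number gave 143 calls and a block by treatment and number 22 (14 positive). Arrays of equal number in the same treatment correlated between tissues at r = 0.114, 0.102 and 0.287 for MCT and 0.115, 0.098 and 0.054 for PS. Arrays of unequal number in the same treatment ran from −0.248 to 0.191 for MCT and from −0.109 to 0.026 for PS. The labels do not state a pairing, and heart PS 2 and cerebrum PS 2 differ in Xist, so the numbers were not taken as pairing. Whether equal numbers mark shared mice was not tested. Over 102 named genes and 23 settings, 1681 values kept their side of the threshold, 546 fell short of it, 105 newly passed and 2 reversed: Xist, 1.35 and not called, was −0.78 without cerebrum PS 2 and −0.93 without cerebrum PS 1 and PS 2, with 2.49 at most when 1 array was left out. Without 1 array the value of 6 named genes moved by over 1.5 times, none of them called: Xist (each cerebrum PS array), Col6a1 and Postn (heart PS 2), Elp4 (heart MCT 3), and Hsd11b1 and Nptx2 (cerebrum PS 2). The cause of these changes was not tested. In 46 of the 194 calls, 1 tissue lay under the filter level, where signal over background limits an effect.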

Other observations

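Called positive differences were found for 4 imprinted genes, which are expressed from the allele of one parent. They were grouped after their values were seen, with no list or test. Imprinted genes that were tested and not called, or that went the other way, were not counted. No share of imprinted genes can therefore be set beside the 1.1% of all tested transcripts called with a positive difference. Besides Peg10 and Dlk1, Grb10, an adaptor of insulin and growth factor receptors, was 7.93, 8.29 and 8.45 in heart MCT and 8.67, 8.88 and 8.65 in heart PS. In cerebrum it was 7.42, 7.68 and 7.38 with MCT and 6.93, 6.34 and 6.64 with PS. PS arrays lay above every control in heart and below every control in cerebrum (difference 1.37 ± 0.24, SE, limma adjusted p = 0.0205). Sgce, the epsilon-sarcoglycan gene that neighbours Peg10 on chromosome 6, was at 0.42 in heart and −0.34 in cerebrum (difference 0.76, limma adjusted p = 0.045) and was past the threshold in 1 of the 12 fits that each leave out an array.

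By chromosome, 13 of 402 tested transcripts of the X chromosome were called (3.23%, beside 1.52% of all), 11 of them with a positive difference. The sex pattern of the arrays moves with treatment in heart and, except in cerebrum PS 2, in cerebrum, and its part was not tested. Of 100 small RNA transcripts, 4 were called, all with a negative difference. Of 4335 tested clusters that carry more than 1 symbol or no symbol, 4 were called by limma (0.0923%), all negative. They were fitted and adjusted as a set of their own, so that share is not on the same footing as the 1.52%. An unadjusted p under 0.05 was found for 679 of them. Gpx3, a secreted antioxidant enzyme, was 5.98, 5.36 and 6.50 in cerebrum PS, 7.82, 8.31 and 6.94 in cerebrum MCT, and 10.06 to 10.98 in heart, and its difference of 2.04 did not pass (limma adjusted p = 0.0567). Noct, a circadian gene of the deadenylase family, was at 1.13 in heart and 0.33 in cerebrum, with a difference of 0.80 (limma adjusted p = 0.0552).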
